A study of Homo sapiens with 31 samples.

Results

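The miR-15/16 family was represented by hsa-miR-15a-5p, hsa-miR-15b-5p and hsa-miR-16-5p (miR-15a-5p, miR-15b-5p and miR-16-5p below), taken as every interaction whose ligated miRNA carried one of these names. They made up 1733 of the 32712 deposited miRNA–target interactions of Huh-7.5 cells (5.30%), with 268 for miR-15a-5p, 269 for miR-15b-5p and 1196 for miR-16-5p. The study's text reports a larger total for these cells, and only the deposited interactions were used here. By number of interactions miR-16-5p ranked 7 among all ligated miRNAs, miR-15b-5p 28 and miR-15a-5p 29. Each interaction is a place in the genome where 1 or more chimeric reads joined the miRNA to a fragment of target RNA.

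Members of the family are processed from hairpins that lie in pairs, 1 pair in an intron of DLEU2 on chromosome 13 and the other in an intron of SMC4 on chromosome 3. A miRNA loaded into Argonaute (AGO) finds its targets mainly through the seed, the bases near its 5′ end, and further bases toward the 3′ end can add auxiliary pairing. The family is known for restraining the cell cycle through cyclin and checkpoint mRNAs, and its chromosome 13 locus is often lost in chronic lymphocytic leukaemia.

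The mature sequences from RefSeq (GRCh38.p14) are shown because the members have the same seed and differ only beyond it. Capitals mark the seed, bases 2 to 8:
miR-15a-5p: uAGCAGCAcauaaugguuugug
miR-15b-5p: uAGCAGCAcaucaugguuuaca
miR-16-5p: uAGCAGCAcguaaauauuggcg
The first 9 bases are identical. With positions counted from 1 at the 5′ end, miR-15a-5p and miR-15b-5p differ at 4 positions (A12C, G20A, U21C and G22A). miR-15a-5p and miR-16-5p differ at 6 positions, the first of them A10G, and miR-15b-5p and miR-16-5p differ at 8. A target that pairs with the whole seed reads UGCUGCU, and an A after it makes the match an 8mer. miR-16-5p is made from MIR16-1 (chromosome 13) and MIR16-2 (chromosome 3), which give the same mature sequence, so chimeras could not be traced to either gene. miR-15a-5p comes from MIR15A on chromosome 13 and miR-15b-5p from MIR15B on chromosome 3.

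AGO was crosslinked to RNA in Huh-7.5, an established human hepatoma line, and purified in 31 libraries. Standard AGO-CLIP gave 19 of them: 7 with no treatment in their title, 4 mock, 4 with LNA-122 and 4 with miravirsen, both inhibitors of miR-122. CLEAR-CLIP, a protocol directed at chimeras, gave 12, 2 each with low RNAse A and ligase, low RNAse A without ligase, HSPC117 siRNA with low RNAse A, and HSPC117 over-expression with low RNAse A, high RNAse A or RNAse T1, all HSPC117 libraries being without ligase. By the paper's read counts most chimeras came from standard AGO-CLIP, with more from LNA-122 and from miravirsen than from mock. All chimeras were deposited as 1 table that names no library. The family therefore could not be compared between treatments and had no replicates, so that each interval and p-value covers no more than the counting of interactions. Reads that fitted several miRNAs, usually of 1 family, were given to one of them at random by the authors, at least at first, which can move reads between members. Depth was low for most single interactions, since 1678 of the family's 1733 (96.8%) rested on 1 chimeric read, and 55 on 2 to 6 reads. The sum was 1812 reads for the family. Among all other miRNAs 94.9% of interactions rested on 1 read. Of 9 hepatocyte and hepatoma marker genes 9 held interactions of any miRNA, against 1 of 5 neuronal, 0 of 5 immune and 1 of 3 fibroblast markers.

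To see how far the members rely on the shared seed, the strongest seed match in each 75 nt target region was compared. A canonical match was an 8mer, a 7mer-m8 (bases 2 to 8), a 7mer-A1 (bases 2 to 7 with an A opposite base 1), a 6mer (bases 2 to 7) or an offset 6mer (bases 3 to 8). Canonical matches were found in 49.4% of miR-15b-5p interactions (133 of 269; 95% Wilson interval, 43.5 to 55.4), 41.4% of miR-15a-5p (111 of 268; 35.7 to 47.4) and 37.2% of miR-16-5p (445 of 1196; 34.5 to 40.0). All 3 shares were above those of the remaining interactions, which were 30.1% to 30.3%. The odds ratios were 2.26 for miR-15b-5p (Fisher's exact test with Benjamini–Hochberg adjustment over 83 miRNAs, adjusted p = 4.9e-10), 1.63 for miR-15a-5p (adjusted p = 3.8e-04) and 1.37 for miR-16-5p (adjusted p = 1.2e-06). The table holds 22.9% of miRNAs with a higher and 31.3% with a lower canonical share by this test. Within 3′-UTRs alone the calls were lost for miR-16-5p (odds ratio 1.41, adjusted exact p = 0.072) and miR-15b-5p (1.53, adjusted p = 0.20), and miR-15a-5p had too few 3′-UTR interactions to be tested.

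Between members, miR-15b-5p had a canonical match 12.2 percentage points more often than miR-16-5p (two-sided Fisher's exact test, adjusted over 3 pairs, p = 7.4e-04). The difference of -8.02 points between miR-15a-5p and miR-15b-5p did not pass (adjusted exact p = 0.10), nor did the 4.21 points between it and miR-16-5p (adjusted p = 0.21). Of these 3 pairs 33.3% passed. In 3′-UTRs the call between miR-15b-5p and miR-16-5p was lost (odds ratio 1.10, against 1.65 over all regions, adjusted exact p = 0.77). Counting 8mer, 7mer-m8 and 7mer-A1 only, miR-15a-5p also lay above miR-16-5p (odds ratio 1.498, adjusted exact p = 0.012).

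Among the kinds of match the 7mer-m8 differed most from all other miRNAs. The 7mer-m8 took 292 family interactions (16.8%), against 7.05% of the interactions of all other miRNAs. It was 21.9% for miR-15b-5p, 17.2% for miR-15a-5p and 15.6% for miR-16-5p. The 7mer-A1, in contrast, took 2.65% of family interactions and 5.34% of the others. The 8mer separated the members, with 11.2% for miR-15a-5p and 10.4% for miR-15b-5p beside 5.77% for miR-16-5p, and 6.69% for all other miRNAs. These shares of single match types are descriptions and were not tested. In 384 of the 419 family 8mer and 7mer-m8 interactions (91.6%) the predicted duplex paired all 7 seed bases by Watson–Crick pairs. The authors forced seed pairing in the prediction where such a match was present, so this share largely reflects that setting.

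**Figure D1:**
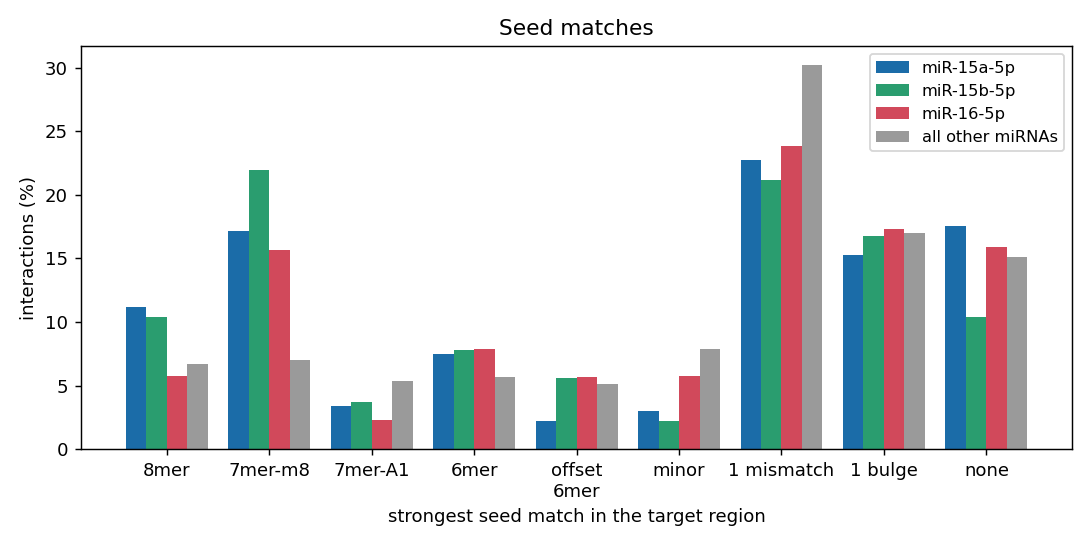
Share of interactions (y axis, percent) by strongest seed match (x axis) for each member and for all other miRNAs (grey); minor matches are 5mers and the 6mer-A1. The 7mer-m8 bars of the members stand at 15.6% to 21.9%, and that of all other miRNAs at 7.05%.

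Canonical seed matches lay close to the start of the target region. Canonical matches of the family began at a median position of 19 (interquartile range 15 to 27) and 88.5% began in the first 37 positions (85.9 to 90.7, n = 689), against a median of 23 and 82.4% for all other miRNAs (n = 9250). The median was 17 for miR-15b-5p, 20 for miR-16-5p and 21 for miR-15a-5p. All 28 8mers of miR-15b-5p began in those first positions. Imperfect matches lay farther away, with a median of 29 for matches with 1 mismatch (n = 403) and 28 for those with 1 bulge (n = 293).

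Imperfect seed matches of the family had a change at base 5 less often than those of all other miRNAs pooled. The study reports that many of the most abundant miRNAs in mouse brain also disallowed a bulge at this base. A low share of such bulges is therefore not known to be particular to the family. Other miRNAs were not compared singly, and whether the family differs from most of them was not tested. A match with 1 mismatch was present in 403 family interactions (23.3%) and one with a bulged miRNA base in 245. The bulged base was base 5 in 9 of 245 (3.67%; 1.94 to 6.83), against 977 of 4207 (23.2%) for all other miRNAs (odds ratio 0.13, Fisher's exact test over 12 places, adjusted p = 1.1e-15). By member these were 1 of 30 for miR-15a-5p, 1 of 40 for miR-15b-5p and 7 of 175 for miR-16-5p. Mismatches at base 5 were also fewer, at 12.7% of the family's against 21.97% (odds ratio 0.51, adjusted exact p = 1.9e-05). Bulges at base 3 (24.9% against 16.2%, adjusted exact p = 0.0030) and base 4 (29.0% against 21.3%, adjusted p = 0.016) and mismatches at base 7 (21.1% against 15.04%, adjusted p = 0.0043) were more frequent in the family. Of the 12 places 25% were higher and 16.7% lower. Within each kind the shares of all bases make up the whole, so a low share at base 5 raises the others. The higher places are therefore not results independent of base 5. This comparison was added after the counts had been seen.

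The target word for a bulge at base 5 differs from those for other bulged bases in 1 respect. With base 5 left out, the target of the seed reads UGCGCU, the only one of the 6 words with a base left out that holds the dinucleotide CG. A mismatch at base 5 leaves no CG where the target has A, and makes one where it has C or G. Of the 51 mismatches at base 5, 41 (80.4%) put an A opposite A, 7 a C and 3 a G. At base 4, where no mismatch makes a CG, A, C and U took 31, 30 and 30 of 91. At base 6, where none makes one either, the shares were uneven, with 27 of 72 for A, 10 for G and 35 for U. A mismatch with G at base 2 or with C at base 8 also makes a CG. No mismatch at base 8 was listed, either for the family (0 of 403) or for all other miRNAs (0 of 9353). At base 2 a G took 1 of 28, while mismatches at that base were 6.95% of the family's and 6.86% of the others'. The frequency of these words in the transcripts of Huh-7.5 cells was not measured, and its part in the result was not tested.

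**Figure D2:**
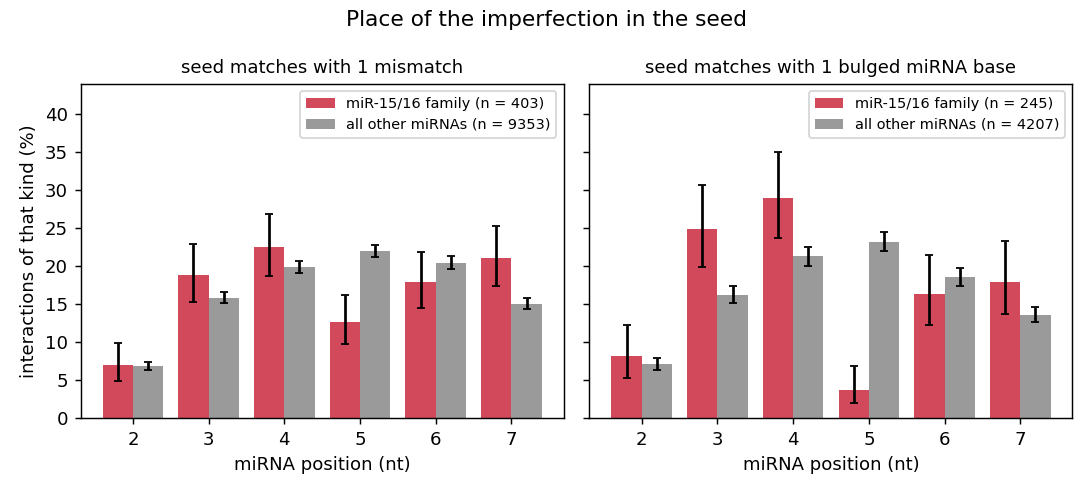
Share (y axis, percent) of seed matches with 1 mismatch (left) and with 1 bulged miRNA base (right) that carry it at each miRNA position (x axis), for the family (red) and all other miRNAs (grey), with 95% Wilson intervals. At base 5 the family bars fall to 12.7% and 3.67%, against 21.97% and 23.2% for all other miRNAs.

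To learn whether members that share a seed pair alike beyond it, the predicted duplexes were compared base by base. Their pairing differed sharply from base 10 onward. The 4 consecutive bases beyond the seed that were paired most often are shown in capitals:
miR-15a-5p: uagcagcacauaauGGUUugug
miR-15b-5p: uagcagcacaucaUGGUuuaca
miR-16-5p: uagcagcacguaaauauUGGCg
These were bases 15 to 18 of miR-15a-5p (mean 81.8% paired), 14 to 17 of miR-15b-5p (78.3%) and 18 to 21 of miR-16-5p (79.2%). The stretch of miR-16-5p thus lay nearest the 3′ end. In interactions without a canonical match they were at the same bases, with means of 85.2%, 80.0% and 82.8%. With a canonical match the stretch of miR-15a-5p was bases 14 to 17 (78.8%), the bases also leading in miR-15b-5p (76.5%), and that of miR-16-5p again 18 to 21 (73.3%).

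Of 63 tests over 3 pairs of members and bases 2 to 22, 35 passed (55.6%; two-sided Fisher's exact test, adjusted over all 63). miR-15a-5p and miR-15b-5p differed at 8 bases, all from 11 onward. Base 12, where their sequences first differ, was paired in 33.6% of miR-15a-5p interactions (28.2 to 39.4) and 67.7% of miR-15b-5p (61.9 to 73.0; adjusted exact p = 1.0e-14). The neighbouring bases 11 and 13, which are the same in both, were paired in 36.6% and 45.1% for miR-15a-5p and in 54.3% and 64.7% for miR-15b-5p. At base 20 the order turned round, with 73.5% for miR-15a-5p and 36.8% for miR-15b-5p (adjusted exact p = 4.2e-17).

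miR-16-5p stood apart from both through a gap in the middle of its 3′ part. Base 16 was paired in 89.6% of miR-15a-5p interactions, 86.6% of miR-15b-5p and 40.3% of miR-16-5p (adjusted exact p = 1.7e-51 against miR-15a-5p and 3.7e-45 against miR-15b-5p). Between bases 9 and 21 miR-16-5p was lowest at base 13 (31.7%) and highest at base 20 (86.8%), where miR-15b-5p had 36.8% (adjusted exact p = 9.0e-59). At base 11 miR-16-5p had 60.6%, against 36.6% in miR-15a-5p and 54.3% in miR-15b-5p, the latter not passing (adjusted exact p = 0.11). At base 10 it had 61.6%, against 42.9% in miR-15a-5p and 42.4% in miR-15b-5p. At base 10 this difference was one of G:U pairs, since miR-16-5p has a G there and miR-15a-5p and miR-15b-5p an A; counting Watson–Crick pairs only, the odds ratios at base 10 turned to 1.04 for miR-15a-5p over miR-16-5p and 1.01 for miR-15b-5p over miR-16-5p (adjusted exact p = 0.93 and 0.95).

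Within bases 2 to 9, which are the same in every member, 0 of 8 tests passed between miR-15a-5p and miR-15b-5p. Against miR-16-5p, 1 of 8 passed for miR-15a-5p and 3 of 8 for miR-15b-5p. The largest difference was at base 2, which was paired in 64.6% of miR-15a-5p, 62.5% of miR-15b-5p and 51.8% of miR-16-5p interactions (adjusted exact p = 3.2e-04 and 0.0030 against miR-16-5p). The duplexes are predictions by RNAhybrid from the listed miRNA and region, with seed pairing forced where a seed match or a variant of one had been found, so pairing follows the bases of each miRNA. From base 10 on, G and C bases were paired in a mean of 73.5% of miR-15a-5p, 68.7% of miR-15b-5p and 66.5% of miR-16-5p interactions, and A and U bases in 57.6%, 51.9% and 47.2%. The part of base composition in the differences was not tested.

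**Figure D3:**
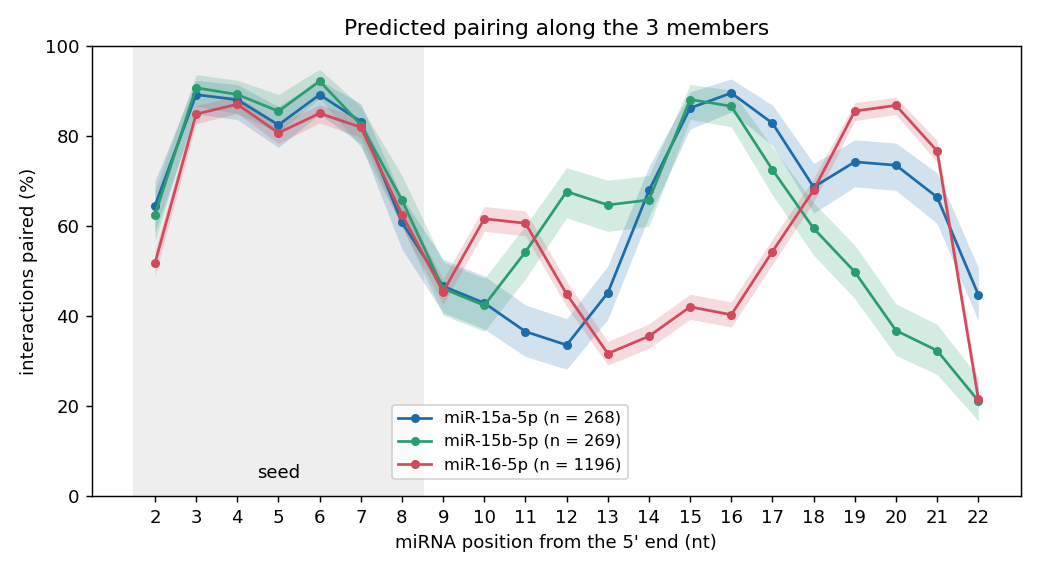
Share of interactions in which a base is paired (y axis, percent, Watson–Crick or G:U) at each miRNA position (x axis), with 95% Wilson intervals as bands and the seed shaded. The lines of miR-15a-5p and miR-15b-5p lie close up to base 10, with miR-16-5p lower at base 2; miR-16-5p then dips to 31.7% at base 13 and peaks at 86.8% at base 20, while miR-15a-5p peaks at base 16 and miR-15b-5p at base 15.

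The study sorted all duplexes into 7 classes by k-means clustering of the same pairing maps, so the classes restate the profiles above as kinds of whole duplexes. The seed is paired in all classes but class 4, which is largely seedless. Judged on all other miRNAs, class 1 ends its pairing early (8.57% of bases 17 to 20), and class 3 pairs beyond the seed mainly at bases 17 to 20 (86.9%). Class 5A pairs at bases 9 to 12 (78.8%) and 17 to 20 (80.2%) with a gap at 13 to 16 (26.7%), class 5B has its gap at 9 to 12, and classes 2 and 6 pair along the whole length.

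Each member had its own leading class. For miR-16-5p this was class 5A, with 405 of 1196 interactions (33.9%; 31.2 to 36.6) against 10.05% of all remaining interactions (odds ratio 4.58, Fisher's exact test adjusted over 581 tests, p = 1.1e-101). Only 6 miR-15a-5p interactions (2.24%) and 4 miR-15b-5p interactions (1.49%) fell in class 5A, against 10.991% and 10.998% of the interactions remaining for each (odds ratios 0.19 and 0.12, adjusted exact p = 6.8e-07 and 2.1e-08). For miR-15a-5p the leading class was class 3, with 32.8% (27.5 to 38.7) against 12.6% (odds ratio 3.38, adjusted exact p = 1.9e-16). For miR-15b-5p it was class 1, with 32.3% (27.0 to 38.1) against 13.1% (odds ratio 3.18, adjusted exact p = 5.7e-15), followed by class 2 with 25.7% against 17.8% (odds ratio 1.59, adjusted p = 0.0038).

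Class 3 was also frequent for miR-16-5p (21.2% against 12.5%, adjusted exact p = 3.6e-15), while class 2 was rare for it (6.19% against 18.4%, adjusted p = 7.3e-32). Seedless class 4 was below the remaining interactions for every member, at 6.72% for miR-15a-5p, 6.32% for miR-15b-5p and 8.19% for miR-16-5p against 11.3% to 11.4% (adjusted exact p = 0.033, 0.020 and 0.0015). With seed pairing forced at matches, 0 of the family's 133 class 4 interactions were canonical. The class 4 shares are therefore not independent of the higher canonical shares. In all, 5 of the family's 21 tests were higher and 10 lower, where 20.8% and 27.9% of the tests over all 83 miRNAs were. Restricted to 3′-UTRs, 4 of 14 passed, and miR-15a-5p had too few interactions to be tested. Class 5A of miR-16-5p kept an odds ratio of 5.45 (adjusted exact p = 1.4e-18) while class 1 of miR-15b-5p had 1.51 (adjusted p = 0.33). Class 3 of miR-16-5p (1.26, adjusted exact p = 0.39) and class 2 of miR-15b-5p (1.75, adjusted p = 0.14) also lost their calls in 3′-UTRs. There class 4 of miR-15b-5p turned to an odds ratio of 1.31 (adjusted exact p = 0.61) and miR-16-5p lost its class 4 call (0.40, adjusted p = 0.061).

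Between the members themselves 13 of 21 class tests passed (61.9%). miR-15a-5p and miR-15b-5p, which differ at 4 bases, differed by -23.01 points in class 1 (adjusted exact p = 1.5e-10) and by 17.97 points in class 3 (adjusted p = 3.5e-06). In 3′-UTRs both calls were lost, with odds ratios of 0.48 in class 1 (0.22 over all regions, adjusted exact p = 0.50) and 2.09 in class 3 (2.80 over all regions, adjusted p = 0.28). In class 5A miR-15a-5p and miR-16-5p differed by -31.6 points (adjusted exact p = 1.2e-32). Within miR-16-5p the 405 class 5A duplexes paired base 10 in 86.4%, base 15 in 0.988% and base 20 in 97.5%, and 37.8% had a canonical match. Class 1 duplexes of the family had the highest canonical share, 65.0% (58.2 to 71.3), and class 6 had 31.6%.

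**Figure D4:**
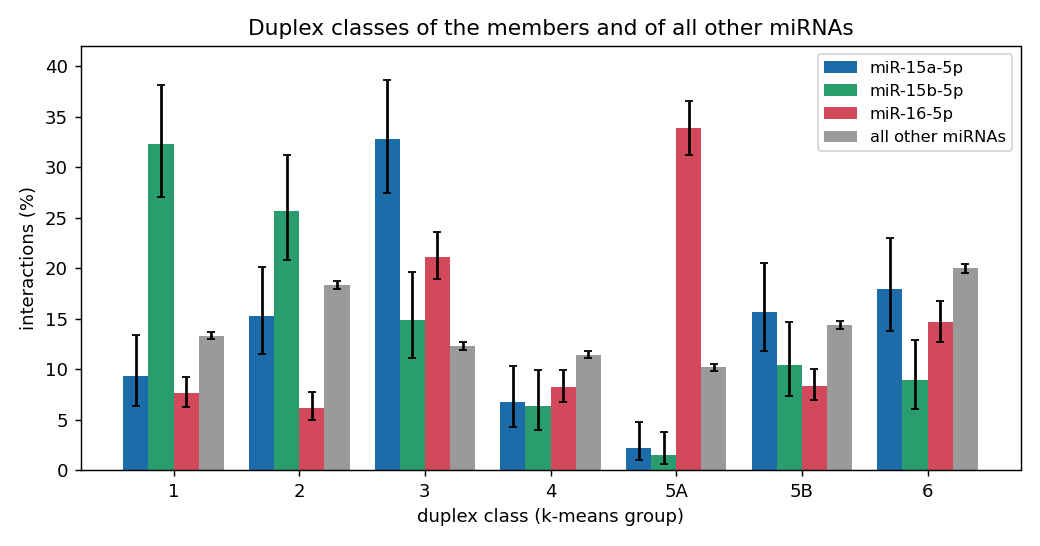
Share of interactions (y axis, percent) in each duplex class (x axis) for the members and for all other miRNAs (grey), with 95% Wilson intervals. miR-16-5p leads in class 5A (33.9%), miR-15a-5p in class 3 (32.8%) and miR-15b-5p in class 1 (32.3%).

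Predicted duplexes with a canonical match had 7.24 ± 2.69 paired bases from base 9 on (SD, n = 689), against 8.03 ± 2.44 with a seed mismatch (n = 403), 8.29 ± 2.40 with a bulge (n = 293), 8.25 ± 2.15 with no match (n = 265) and 7.39 ± 2.74 with a 5mer or 6mer-A1 (n = 83). The spread within each kind exceeded these differences. The median minimum free energy, in kcal/mol, where lower means a more stable predicted duplex, was -21.1 for canonical matches and -15 without a match. Over all interactions it was -19.0 for miR-15a-5p (interquartile range -21.9 to -16.1), -19.5 for miR-15b-5p (-22.4 to -16.5) and -17.8 for miR-16-5p (-20.8 to -15.2), so the ranges overlapped widely.

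miR-103a-3p carries the family's AGCAGCA word 1 base nearer its 5′ end, so that its seed (GCAGCAU) overlaps theirs:
miR-103a-3p: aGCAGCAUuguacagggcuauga
Canonical matches made up 49.4% of miR-15b-5p and 32.6% of the 487 miR-103a-3p interactions (28.6 to 36.9; Fisher's exact test over 24 comparisons, of which 50% passed, adjusted p = 2.4e-05). miR-15a-5p, with 41.4%, also lay above miR-103a-3p (adjusted exact p = 0.035), while the 37.2% of miR-16-5p did not pass (odds ratio 1.22, adjusted p = 0.13). Class 5A held 33.9% of miR-16-5p and 3.90% of miR-103a-3p interactions (adjusted exact p = 1.3e-45), and class 2 held 6.19% of miR-16-5p and 35.7% of miR-103a-3p interactions (adjusted p = 1.2e-47).

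Interactions of the family fell in 1003 annotated genes of the 7074 that held any, and 70.5% of them lay in a gene. Introns held 650 (37.5%), coding sequence (CDS) 340 (19.6%), 3′-UTRs 280 (16.2%) and deep intergenic places 388 (22.4%), where an interaction listed with several regions counted in each. Of 12 tests 2 passed, both higher, where 10.8% of the tests over all miRNAs were higher and 10.2% lower. miR-16-5p was more often in CDS (20.2% against 15.1% of the remaining interactions, odds ratio 1.42, adjusted exact p = 6.2e-05) and miR-15b-5p in 3′-UTRs (21.9% against 14.3%, odds ratio 1.68, adjusted p = 0.0073). With 1 interaction kept for each miRNA and gene, a further test passed.

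Over the whole family canonical matches were more frequent in CDS and 3′-UTRs than in introns and between genes. In miR-15b-5p, though, the intron share (52.6%) was close to those of 3′-UTRs (50.8%) and CDS (55.6%). Canonical matches made up 52.1% of the family's CDS interactions (46.8 to 57.3, n = 340) and 51.1% of those in 3′-UTRs (45.2 to 56.9, n = 280), against 36.6% in introns and 31.7% between genes. For all other miRNAs the CDS share was 30.3% (29.0 to 31.6) and the 3′-UTR share 39.7% (38.3 to 41.2). These shares by region were not tested. At mitochondrial RNA 0 of 38 family interactions was canonical (upper limit 7.89%), against 15.7% of 733 for all other miRNAs. Among the 55 family interactions with 2 or more reads 50.9% were canonical (38.1 to 63.6), against 39.4% of the 1678 with 1 read.

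Of the family's 10 interactions at its known target genes 8 were canonical. Over all family interactions the canonical share was 39.8%, and over those in 3′-UTRs it was 51.1%. Of 31 genes on a list written from general knowledge, 19 held interactions of any miRNA and 6 held interactions of the family. The family made up 14.3% of all interactions at the listed genes (10 of 70; 7.95 to 24.3), against 5.53% of those at all other genes. The list was chosen with earlier results of these data known, so its count is no independent evidence. The target sites below are given because they show the seed match in named mRNAs. They were read from the deposited duplex maps, in which each paired target base follows from the miRNA base opposite; n is an unpaired base that the maps do not fix, and capitals are the bases paired with the seed:
CCND1 and miR-15a-5p: cauugunUGCUGCU
CCNE1 and miR-15a-5p: gcnnccgnUGCUGCU
ANLN and miR-15a-5p: uaaacuguuaugnnGCUGCU
WEE1 and miR-16-5p: gccnugunnaunUGCUGCU
E2F7 and miR-16-5p: uaauuuuauUGCUGCU
VEGFA and miR-16-5p: cgccannnuauuunncnUGCUGCU
All 6 lie in 3′-UTRs and rest on 1 read each.

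The cyclin D1 gene CCND1 and the cyclin E1 gene CCNE1, both drivers of entry into the cell cycle, each held 1 interaction, an 8mer of miR-15a-5p (hg18, chromosome 11, 69177245 to 69177320, and chromosome 19, 35006759 to 35006834). ANLN, an actin-binding protein of cytokinesis, held a 7mer-A1 of miR-15a-5p (chromosome 7, 36459520 to 36459595) with a free energy of -25.8. E2F7, a repressor of cell cycle genes, held a 7mer-m8 of miR-16-5p (chromosome 12, 75939280 to 75939355). The angiogenic factor VEGFA had an 8mer of miR-16-5p with a free energy of -26.0 (chromosome 6, 43860526 to 43860601) and a second miR-16-5p interaction with no seed match (-9.90).

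WEE1, the kinase that holds back mitosis, held 4 family interactions. Its 3′-UTR had an 8mer (chromosome 11, 9567251 to 9567326) and a 7mer-m8 of miR-16-5p and a mismatched 6mer-A1 of miR-15b-5p. A further 7mer-m8 of miR-16-5p lay in its CDS (chromosome 11, 9564605 to 9564680; free energy -26.8, class 5A):
WEE1 CDS and miR-16-5p: gccnnnnnnnnnnuaugUGCUGCU
The wider list of 28 cell cycle and p53 genes added no other gene with a family interaction, since its 4 were CCND1, CCNE1, E2F7 and WEE1. The host genes DLEU2 and SMC4 held 0 family interactions of 11.

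Secreted hepatocyte proteins held 15 family interactions among 220 (6.82%; 4.18 to 10.9), against 5.54% at all other genes, in 5 of 18 genes with any interaction. Of these 15 interactions 10 were canonical. Cholesterol and fatty acid genes held 15 of 151 (9.93%; 6.11 to 15.7), against 5.53%, in 11 of 18 genes, but only 3 of the 15 were canonical. Genes of the miRNA pathway held 3 of 82 (3.66%), at AGO1 and TNRC6A, and none was canonical.

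The interaction with the most reads, 6, joined miR-16-5p to a 7mer-m8 in the 3′-UTR of ZNF91, a zinc finger repressor (chromosome 19, 23333406 to 23333481, minus strand). miR-15a-5p (3 reads) and miR-15b-5p (1 read) were ligated to the same match, so that all members met at 1 site:
ZNF91 and miR-16-5p: ucaannnnnncnUGCUGCU
ZNF91 and miR-15a-5p: aaaucaUGCUGCU
ZNF91 and miR-15b-5p: aaaucaUGCUGCU
ZNF91 belongs to a large family of similar genes, and the authors kept only uniquely mapped fragments. Next came miR-16-5p in the CDS of GPC3, an oncofetal glypican (5 reads, a 7mer-m8 with a bulge; chromosome X, 132661629 to 132661704), and in the 3′-UTR of UBE2R2, a ubiquitin-conjugating enzyme (4 reads, a 6mer; chromosome 9, 33907699 to 33907774). Both had long auxiliary pairing, of 11 and 10 bases:
GPC3 and miR-16-5p: cgccaauaunnauCUGCU
UBE2R2 and miR-16-5p: gccaanguuuaGCUGCU
Only 4 family interactions had more than 3 reads and 13 had 3, of which those taken into the 10 with the most reads were chosen by the order of their listed gene symbols. Beside those above, the 10 were an intergenic place on chromosome 16 (4 reads), one on chromosome 2, 4 places on mitochondrial RNA and an intron of ARHGEF40, where miR-15b-5p had a 7mer-m8 (3 reads each).

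Overlapping target regions of different members formed 25 pairs, of which 18 had the same seed match at the same base. Among miR-15a-5p regions 11 of 268 (4.10%) overlapped a miR-16-5p region, which was 0.920% of the 1196 miR-16-5p regions, and 9 of 269 miR-15b-5p regions did so (3.35%). These shares depend on how many regions each miRNA has: miR-16-5p regions overlapped those of the other members in 1.59%, of miR-17-5p in 2.17% and of miR-320a in 2.09%, both miRNAs with another seed and more interactions. Of the 25 pairs, with or without a shared match, 13 fell in the same class. The same match could also be predicted with different auxiliary pairing for different members. The 8mer in the 3′-UTR of ZFHX3, a homeobox transcription factor, and the 7mer-m8 in the 5′-UTR of CITED2, a transcriptional co-regulator, show this:
ZFHX3 and miR-15a-5p: aaacunugUGCUGCU
ZFHX3 and miR-16-5p: ugUGCUGCU
CITED2 and miR-15b-5p: ccnnnaugUGCUGCU
CITED2 and miR-16-5p: cgccagnnnngunnnnnnuaugUGCUGCU
At ZFHX3 the free energy was -24.6 for miR-15a-5p (class 2) and -20.3 for miR-16-5p (class 1). At CITED2 it was -23.2 for miR-15b-5p (class 1) and -28.9 for miR-16-5p (class 6). At the CDS of the chaperone HSP90AA1 both miR-15a-5p (2 reads, -22.7) and miR-16-5p (3 reads, -25.9) were ligated to the same 7mer-m8, and at the 3′-UTR of the splicing factor SRSF1 miR-15a-5p (-20.6) and miR-15b-5p (-22.4) shared one.

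miR-15a-5p and miR-16-5p had 36 genes in common, 19.6% of the 184 genes of miR-15a-5p and 5.08% of the 709 of miR-16-5p. miR-15b-5p and miR-16-5p shared 42, 21.99% of 191 and 5.92% of 709, and miR-15a-5p and miR-15b-5p shared 8, or 4.35% and 4.19%. With miRNAs of another seed, miR-16-5p shared 217 genes with miR-17-5p (30.6% of its 709 and 15.9% of 1365) and 184 with miR-320a (25.95% of 709 and 16.6% of 1109). Most interactions rest on 1 read, so an interaction not found for a member does not show that it is absent. A single family interaction was found in 852 of the 1003 genes, 76 genes held 2 or more members and 5 held all 3: FAF1, GNGT1, PROX1, ZNF91 and ZNRF3.

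The most family interactions, 6 each, were at AFP, the fetal serum protein of hepatocytes, at the growth factor IGF2 and at HFM1, a meiotic helicase. All 6 at AFP lay in CDS and 4 were canonical. The 4 of miR-16-5p and 2 of miR-15b-5p were 10.5% of the 57 interactions of any miRNA at AFP. The 6 at IGF2 were spread over 5′-UTR, intron, CDS and 3′-UTR, and 2 of them, in CDS and intron, were canonical. The family made up 22.2% of the 27 interactions of any miRNA at IGF2. The 6 at HFM1 had no canonical match and lay within 386 nt of intron, where 54 of the gene's 55 interactions of all miRNAs were found. ZNF91 and GNGT1, a transducin gamma subunit, held 5 each, all at the 3′-UTR and within 309 nt in ZNF91, and all in introns and without a canonical match in GNGT1.

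Among genes with 4, SNX5, a sorting nexin, had a 7mer-m8 of miR-16-5p at all 4, and these were 44.4% of its 9 interactions of any miRNA. MMD, a monocyte to macrophage differentiation gene, also held 4 of 9, all of miR-16-5p, with 3 in CDS. The secreted carrier ALB had 4 of miR-16-5p in CDS and 2 of them were canonical. GPC3 had 4 of miR-16-5p with 8 reads in all. All 4 were intronic in each of FAF1, a Fas-associated factor (3 canonical), the glypican GPC6 (1 canonical), DENND1A and the teneurin TENM2 (0 canonical each). PROX1, a liver transcription factor, and ZNRF3, a ubiquitin ligase of Wnt signalling, held 3 interactions, 1 of each member.

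**Figure D5:**
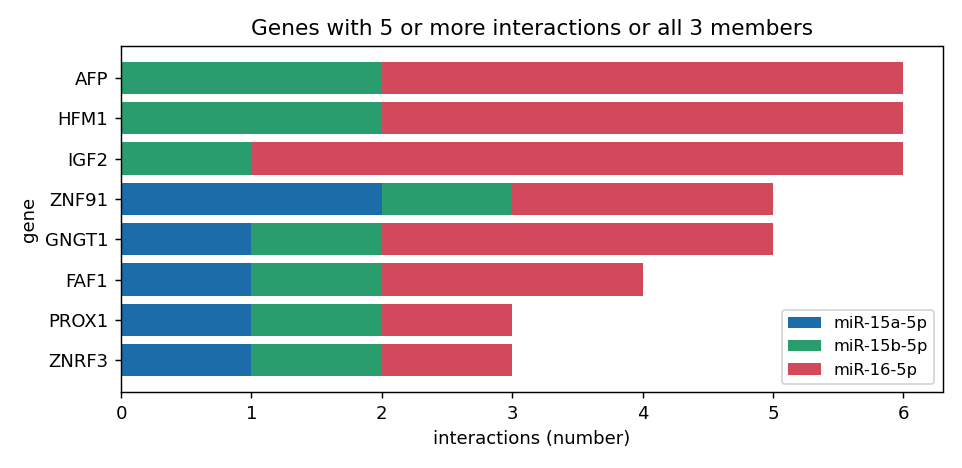
Number of family interactions (x axis) at the genes with 5 or more and the other genes of all 3 members (y axis), split by member. AFP, HFM1 and IGF2 hold 6 each, most of them with miR-16-5p.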

How the data were processed

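AGO-bound RNA was sequenced from Huh-7.5 cells in 31 libraries. The authors processed reads with CASAVA 1.8.2 and mapped miRNAs and target fragments with Bowtie (version not given in the sources used here) to hg18. They gave reads fitting several miRNAs to one at random for initial analyses, kept fragments with 1 place in the genome, collapsed PCR duplicates and merged overlapping reads of 1 miRNA. The deposited table holds a count of chimeric reads for each interaction, not normalized, the minimum free energy, a deposited score from RNAhybrid (the file names no unit; the study gives such energies in kcal/mol), and the seed position, an other quantity that the authors count from 1 at the first base of the 75 nt region. Coordinates are printed as listed, since no source says if they count from 0 or 1.

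Each interaction was counted once. Shares have 95% Wilson intervals, which cover counting error only, as do limits for a count of 0 (3 counts). Each miRNA with at least 50 interactions was compared with all other interactions, and members with each other, by two-sided Fisher's exact test with Benjamini–Hochberg adjustment and a threshold of 0.05, using Python 3.11.15, pandas 2.3.3, numpy 2.4.6, scipy 1.17.1 and statsmodels 0.14.6. Plots used matplotlib 3.10.9. The tests were run on simulated tables with planted shares. The first map character was read as base 2. Mature sequences were matched by name for 426 of 542 miRNAs. Target bases deduced from the maps had 1 identity at all 9880 positions covered by several interactions. Symbols were updated through gene IDs (7049 of 7074 matched).

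The text names the 10 interactions with the most reads (ties by listed gene symbol), the 15 genes with the most family interactions (ties by reads, then name), genes of all 3 members and listed targets with an interaction, with further shared sites chosen after their values were seen. Some of these genes are not reported here. Members and lists were chosen with earlier results of these data known. Alternatives were weighting by reads, support of at least 2 reads, 3′-UTRs only, 1 interaction per miRNA and gene, other definitions of a match or pair, and other backgrounds.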

Additional observations from a re-analysis of the deposited data

How the results depend on the processing

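No paired analysis was possible because the table names no library, so the replicate numbers of the labels belong to no value, and for the same reason no library could be left out. With at least 2 reads per interaction no member kept 50 interactions, so the tests against other miRNAs could not be run. Fisher's exact tests between members then made 0 calls in place of 35 for pairing, 13 for classes and 1 for canonical share, with 9, 0 and 0 at an unadjusted p under 0.05 and 11, 6 and 38 interactions left for miR-15a-5p, miR-15b-5p and miR-16-5p. In 3′-UTRs only, the 15 class calls against other miRNAs became 4 of 14 tests, the 3 canonical calls became 0 of 2 (1 at an unadjusted p under 0.05), the 13 class calls between members became 6 and the 1 canonical call between members became 0 (0 unadjusted). With canonical matches restricted to 8mer, 7mer-m8 and 7mer-A1, calls between members rose to 2. The 35 pairing calls were 35 with Watson–Crick pairs only, 29 in canonical interactions and 29 in those without a canonical match, the last chosen after seeing the data.

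Directions turned in 12 cases. In 3′-UTRs the odds ratio became 1.31 for class 4 of miR-15b-5p, 1.04 for class 6 of miR-16-5p, 1.34 for class 3 of miR-15b-5p over miR-16-5p and 1.504 for the canonical share of miR-15a-5p over miR-15b-5p. With at least 2 reads it became 0.624 and 1.02 for miR-15a-5p over miR-16-5p at bases 2 and 21, 0.20 and 1.75 for miR-15a-5p over miR-15b-5p in class 6 and canonical share, 0 for class 2 of miR-15a-5p over miR-16-5p and 2.67 for class 6 of miR-15b-5p over miR-16-5p. Watson–Crick pairs gave 1.04 and 1.01 at base 10 for miR-15a-5p and miR-15b-5p over miR-16-5p. None of the 12 passed its test, and the cause was not tested. Of 314 comparisons of single values with an alternative, 234 kept direction and side of the threshold, 67 lost the call and 1 gained it.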

Other observations

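The other arms of the family's hairpins were ligated far less often. There were 15 interactions of miR-15b-3p, 8 of miR-15a-3p, 7 of miR-16-2-3p and 3 of miR-16-1-3p, against 268 to 1196 for the 5p arms. Relatives with the same seed were also rare, with 39 interactions of miR-424-5p, 11 of miR-195-5p and 1 of miR-497-5p. miR-424-5p was canonical in 46.2% (31.6 to 61.4, n = 39). miR-195-5p differs from miR-16-5p at 2 positions within its 21 bases (G10A and U11G), and 3 of its 11 interactions were in class 5A, beside 2 of the 39 of miR-424-5p.

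Among the family's 48 target bulges, 13 lay opposite bases 4 and 5, 10 each opposite bases 5 and 6 and bases 6 and 7, 9 opposite bases 3 and 4 and 6 opposite bases 2 and 3.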
